A study of Mus musculus with 2 samples.

Results

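The Cyp4 family of cytochrome P450 monooxygenases was examined in the livers of FLS mice, a model of nonalcoholic steatohepatitis (NASH), and of DS mice, a sister strain that stands for simple steatosis. The group comprised 10 mouse genes (Cyp4a10, Cyp4a12a, Cyp4a12b, Cyp4a14, Cyp4b1, Cyp4f13, Cyp4f14, Cyp4f15, Cyp4f18 and Cyp4v3), chosen by name from the 18194 genes on the array with an annotated probe set, and with the FLS/DS ratio of some of them already known. Each strain was represented by 1 Affymetrix mouse whole-genome array hybridized with liver RNA pooled from 3 mice at 19 weeks of age. FLS and DS are inbred strains from separate lines of 1 outbred ddN colony. All animals received a standard pellet diet and no other treatment, and organ blood was washed out with saline before the livers were taken. The sources used here do not give the sex of the mice. Strain and liver disease therefore cannot be told apart, the pools carry no measure of the spread between mice, and with 1 array per strain no p-value can be given.

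CYP4 enzymes sit in the endoplasmic reticulum and hydroxylate fatty acids at the terminal, or omega, carbon. The product is oxidized further by alcohol and aldehyde dehydrogenases to a dicarboxylic acid, which is shortened by beta-oxidation in peroxisomes. In the liver this is a minor route of fatty acid disposal that gains weight when mitochondrial oxidation is overloaded. In mice, Cyp4a10 and Cyp4a14 are textbook targets of the fatty acid receptor PPARalpha, Cyp4a12a and Cyp4a12b are expressed mainly in males, and enzymes of the Cyp4f subfamily inactivate leukotriene B4, a chemoattractant of neutrophils.

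Signal intensities are given on a linear scale, and fold changes as their FLS/DS ratio. A gene was counted as measured with a signal of at least 200 in 1 pool or both, and a ratio with 1 signal below 200 is a bound, given as the brighter signal over 200. Of the 10 genes, 8 had a probe set of their own, 10 probe sets in all. Cyp4a10 was represented only by a probe set that it shares with Cyp4a31, and Cyp4a12b by none under its own name. Cyp4f18 stayed below 200 in both pools, which left 7 measured genes. The measured member nearest to the limit in both pools was Cyp4b1, at 349 in FLS and 321 in DS livers, and the family member nearest to it from below was Cyp4f16, which is not among the 10, at 185 and 184. Over all probe sets the median signal was 120.3 for FLS and 125.2 for DS. The tissue label was checked against 10 hepatocyte markers, of which 8 had a probe set, among them Alb and Ttr, and all 8 were measured, with ratios between 1.02 and 1.07.

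**Figure D1:**
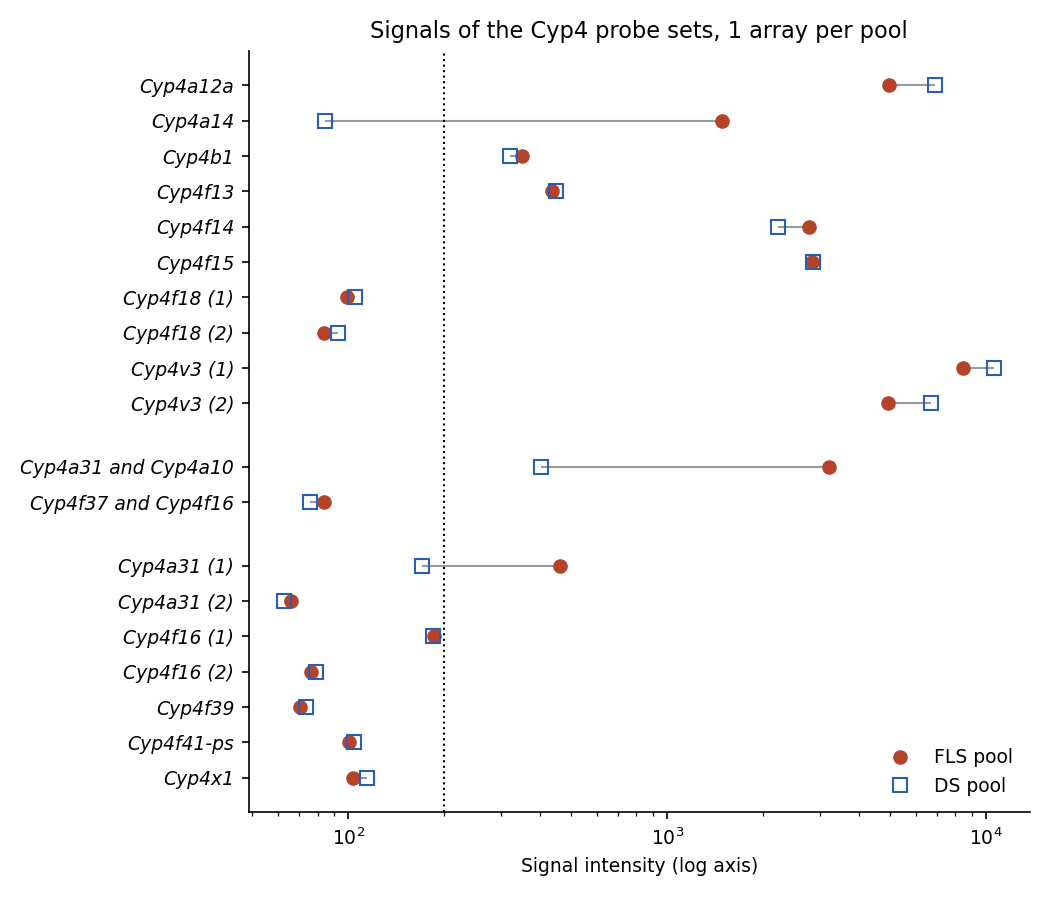
Signal intensity (log axis) of each of the 19 probe sets annotated to a Cyp4 gene for FLS (filled circles) and DS (open squares), 1 array each, with the 10 probe sets of members on top, those shared by several genes below them and other Cyp4 genes at the bottom. The dotted line marks a signal of 200, and numbers in parentheses tell probe sets of the same gene apart. The widest gaps are those of Cyp4a14 (1481.7 against 84.6) and of the probe set shared by Cyp4a31 and Cyp4a10 (3217 against 402).

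Of the 7 measured members, Cyp4a14 alone differed by 2-fold or more between the pools. Its signal was higher in FLS livers. The other 6 lay within 1.5-fold of equal signals, from a ratio of 0.714 for Cyp4a12a to 1.26 for Cyp4f14. Thus 1 of 7 was at least 2-fold higher in FLS livers, where 1.89% of all 9160 measured genes were, and 0 of 7 were at least 2-fold lower, where 1.30% of all measured genes were. These shares rest on the deposited ratios, and with signals below 200 set to 200 they were 1.46% and 1.08%. As the ratio of Cyp4a14 was known when the members were chosen, the first count is a description. Their median on the log2 scale was -0.020, against 0.030 for all measured genes. The summed signal of the members with a probe set of their own was 21352.4 for FLS and 23562.8 for DS, a ratio of 0.906. Without Cyp4a14, left out with its value known, the sums were 19870.7 and 23478.2, a ratio of 0.846. The brightest members, Cyp4v3 and Cyp4a12a, weigh most in these sums. Cyp4a10 and Cyp4a12b, which had no probe set of their own, are not in them.

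**Figure D2:**
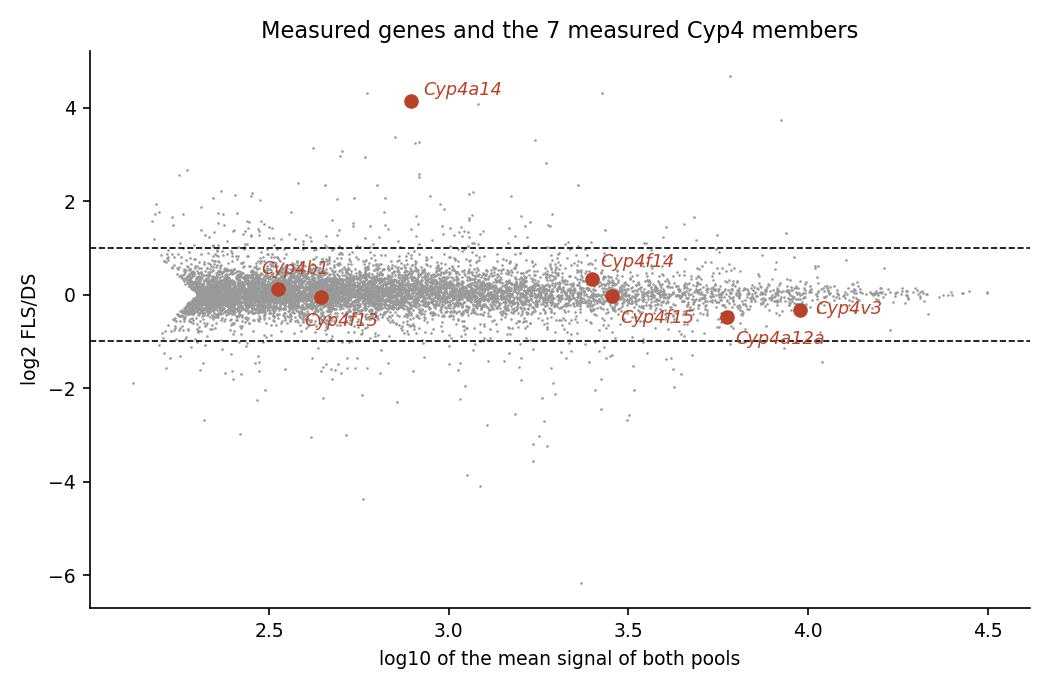
The log2 FLS/DS ratio (vertical axis) of 9160 measured genes against the log10 of their mean signal over both pools, with the 7 measured Cyp4 members as large labelled points. Dashed lines mark 2-fold differences. Cyp4a14 stands at 4.13, and the other 6 members lie between -0.48 and 0.33, inside the dashed lines.

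Cyp4a14, which omega-hydroxylates medium- and long-chain fatty acids, had a signal of 1481.7 in FLS livers and of 84.6 in DS livers. The DS signal lay below the median of its array, so the FLS signal was at least 7.41-fold higher, and the ratio of the signals as deposited was 17.5. By that ratio the gene ranked 4 among the 9160 measured genes, a rank that rests on a DS signal near background. The array holds 1 probe set for it, so no other probe set could be set against this value. Across the deposited values and 4 other scalings of the arrays its ratio ran from 17.4 to 20.2.

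The probe set shared by Cyp4a10 and its close copy Cyp4a31 had a signal of 3217 in FLS livers and 402 in DS livers. Both signals were above the limit, and the ratio was 8.01, or 7.88 to 9.23 over the scalings. How much of it belongs to Cyp4a10, the member, cannot be read from this probe set. Cyp4a31 had 2 probe sets of its own. One of them read 461 in FLS livers and 170 in DS livers, a ratio of 2.71 and, with the DS signal below the limit, at least 2.31-fold. The other read 66.1 and 62.9, below the limit in both pools. The Cyp4 probe sets with a ratio of 2 or more were thus 3 of 19, namely that of Cyp4a14, the shared one and 1 of Cyp4a31. None had a ratio of 0.5 or less. Several of the 19, among them both of Cyp4f18, lay below 200 in both pools and could not be counted on either side. Among all measured genes, 1.89% had a ratio of 2 or more and 1.30% of 0.5 or less. These shares are of genes, not of probe sets.

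Cyp4a12a, the main producer of the omega-hydroxylated form of arachidonic acid in male mice, had a signal of 4942 in FLS livers and 6917 in DS livers. Its ratio of 0.714 was the lowest among the measured members and ranked 472 from the bottom of the 9160 genes. Over the scalings it ran from 0.712 to 0.824, so the side of 1 did not depend on them. The name Cyp4a12 is an older synonym of both Cyp4a12a and Cyp4a12b, and whether the probe set also detects Cyp4a12b was not tested. Cyp4a14 and Cyp4a12a, which belong to 1 subfamily, therefore had ratios on opposite sides of 1. That of Cyp4a12a rests on 1 probe set and was -0.485 on the log2 scale, or -0.28 after division by Actb. The SD between probe sets of 1 gene on these arrays was 0.26.

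In the order of genes along chromosome 4 in the RefSeq annotation, Cyp4a14, Cyp4a10, Cyp4a31, Cyp4a32 and Cyp4b1 follow each other, with Cyp4a12a and Cyp4a12b on the Cyp4a14 side. Of the Cyp4 genes in this row, 4 were measured. Of the 12 measured genes nearest to the cluster, 6 on each side, 1 reached 2-fold, the cell cycle inhibitor gene Cdkn2c at 415 in FLS livers and 94.4 in DS livers. Of all measured genes, 1.89% were at least 2-fold higher. The genes at the borders, Pdzk1ip1 next to Cyp4x1 and Efcab14 next to Cyp4b1, had ratios of 0.825 and 1.05. The 12 genes had a median of -0.058 on the log2 scale. The border genes were thus within 1.5-fold of equal signals. These neighbours were looked up after the values of the members were known.

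**Figure D3:**
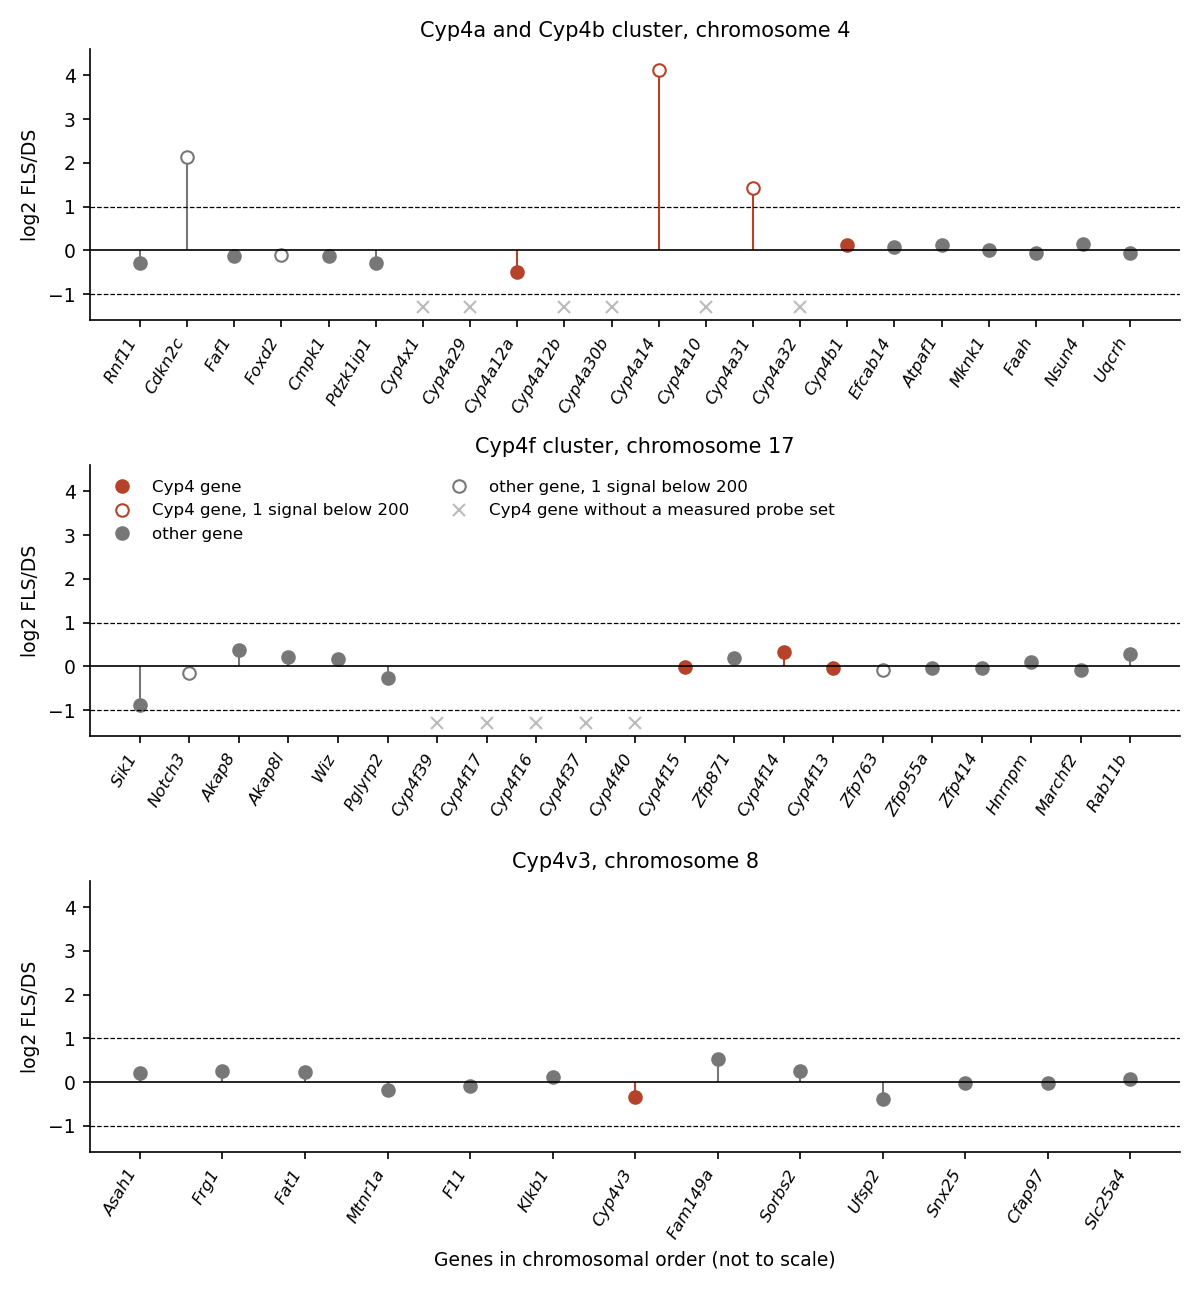
The log2 FLS/DS ratio (vertical axis) of the measured genes in chromosomal order around the 3 places where the measured Cyp4 members lie (Cyp4f18 is not drawn), with up to 6 other measured genes on each side (grey) and Cyp4 genes in colour. Open circles mark ratios with 1 signal below 200, crosses mark Cyp4 genes without a measured probe set of their own, and dashed lines mark 2-fold differences. Cyp4a14 (4.13) and Cyp4a31 (1.44) stand out in the cluster on chromosome 4, while the members on chromosomes 17 and 8 lie between -0.33 and 0.33.

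Cyp4b1, an enzyme best known from the lung, where it also activates foreign compounds, had a signal of 349 in FLS livers and 321 in DS livers. Its ratio of 1.09 is smaller than the spread between probe sets of 1 gene on the same arrays, whose SD was 0.26 on the log2 scale over 3209 genes. The same held for Cyp4f13 and Cyp4f15.

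The Cyp4f members on chromosome 17 gave ratios near 1. Cyp4f14, which hydroxylates leukotriene B4 and vitamin E in mouse liver, had a signal of 2787 in FLS livers and 2221 in DS livers, a ratio of 1.26. Cyp4f15 had signals of 2833 and 2872, a ratio of 0.986. Cyp4f13 had signals of 434 and 448, a ratio of 0.968. The ratios of Cyp4f15 and Cyp4f13 came to lie above 1, at 1.14 and 1.12, when all ratios were divided by that of Actb. Actb, to which the study scaled its PCR values, had a ratio of 0.867, so this division shifts the median log2 ratio by 0.21. Among 13 other measured genes around and between the Cyp4f genes, none reached 2-fold, and their ratios ran from 0.544 for the kinase gene Sik1 to 1.30 for Akap8. Of all measured genes, 1.89% were at least 2-fold higher and 1.30% lower.

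Cyp4f18, which hydroxylates leukotriene B4 in neutrophils, read 98.8 in FLS livers and 105 in DS livers with its brighter probe set and 83.7 and 92.7 with the other. All 4 values lay below both array medians, so no ratio is given. Of 11 neutrophil markers looked up beside it, 9 had a probe set and 3 were measured, Csf3r at 307 in FLS livers and 293 in DS livers, Ngp at 225 and 215, and Mpo at 171 and 213. The other 6 lay below 200 in both pools, so the summed signal of the 9 markers, 1296 for FLS and 1433 for DS, is partly background. By immunostaining, the study found neutrophils in the inflammatory clusters of FLS livers. At the signals of Cyp4f18, all below the limit, no difference between the strains was read.

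Cyp4v3 is the mouse counterpart of human CYP4V2, the gene mutated in Bietti crystalline dystrophy of the retina. Its brighter probe set had a signal of 8426 in FLS livers and 10594 in DS livers, a ratio of 0.795. Its other probe set had 4919 and 6692, a ratio of 0.735. Both probe sets thus read lower in FLS livers, by a factor that differed little between them, and the ratio of the brighter one ran from 0.789 to 0.917 over the scalings. On chromosome 8, the 12 nearest measured genes had ratios from 0.764 to 1.44, among them the clotting factor gene F11 at 0.936 and the prekallikrein gene Klkb1 at 1.08.

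Among the other Cyp4 genes on the array, Cyp4f16, Cyp4f39, Cyp4x1 and the pseudogene Cyp4f41-ps had all their signals below 200, from 70.4 for Cyp4f39 to 185 for Cyp4f16, both in FLS livers. Of 43 measured Cyp genes outside family 4, the deposited FLS signal was 2-fold higher or more for 8 (18.6%) and 2-fold lower or more for 3 (6.98%). Over all measured genes these shares were 1.89% and 1.30%. With bounds in place of ratios the higher ones were 7, since Cyp39a1, at 223 in FLS livers and 75.2 in DS livers, was at least 1.12-fold higher, and the lower ones were 3. Cyp2b10, a phenobarbital-inducible enzyme, led the higher ones at 1501 in FLS livers and 156 in DS livers, a ratio of 9.60 and at least 7.50-fold. Cyp2b13 had the lowest ratio, with 89.8 in FLS livers and 737 in DS livers.

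The receptor that switches on Cyp4a10 and Cyp4a14 is encoded by Ppara. Its signal was 3052 in FLS livers and 3304 in DS livers, a ratio of 0.924, and its other 2 probe sets had ratios of 0.951 and 1.03. Rxra, its partner receptor, had a ratio of 1.19. Of 11 measured nuclear receptor and cofactor genes, none was at least 2-fold lower in FLS livers, where 1.30% of all measured genes were. At least 2-fold higher was 1 (9.09%), where 1.89% of all measured genes were. This was Nr1i3, the constitutive androstane receptor that controls Cyp2b10, at 2819 in FLS livers and 1020 in DS livers (ratio 2.76). Nr0b2, a repressor of bile acid synthesis, had 2887 and 1465 (ratio 1.97), and the coactivator gene Ppargc1a had 219 and 112, at least 1.09-fold. Stat5b, the growth hormone signal carrier, had a ratio of 1.25. The list had a median of 0.25 on the log2 scale, or 0.16 with bounds in place of ratios. After division by Actb the ratio of Nr0b2 was 2.27, past the 2-fold limit. The signals of Ppargc1a as deposited then passed it as well, which its bound does not.

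Other PPARalpha target genes of mouse liver, in a list of 44 that leaves out the Cyp4 genes, were analysed for 40 genes, of which 34 were measured. None of them was at least 2-fold higher in FLS livers, where 1.89% of all measured genes were, so 0 of 34 is near that share. At least 2-fold lower were 2 (5.88%), where 1.30% of all measured genes were. The 34 targets had a median log2 ratio of 0.15, against 0.030 for all measured genes, and their highest ratio was 1.75. That ratio belonged to Vnn1, which encodes the pantetheinase vanin-1, at 423 in FLS livers and 242 in DS livers, and its other probe set had a ratio of 1.77. Acot1, a cytosolic acyl-CoA thioesterase, followed at 1.57. Ehhadh, the peroxisomal bifunctional enzyme, had 4393 in FLS livers and 3603 in DS livers (ratio 1.22), and Cpt1a, which admits fatty acids to mitochondria, had 2158 and 2484 (ratio 0.869). The lower ones were Me1, the malic enzyme that also supplies NADPH to fatty acid synthesis, at 268 and 3159 (ratio 0.0850, and at most 0.133 on its other probe set, where the FLS signal was below the limit), and Aldh3a2. Mgll, a monoacylglycerol lipase, had a ratio of 0.522, with 0.402 and 0.578 on its other measured probe sets. After division by Actb, Vnn1 reached 2.02 and was then the 1 target at least 2-fold higher. Cyp4a14 had a ratio of 17.5, or at least 7.41, and the probe set shared by Cyp4a10 and Cyp4a31 of 8.01. The 34 other measured targets ended at 1.75, a comparison made with the value of Cyp4a14 known. The activity of the receptor was not tested.

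**Figure D4:**
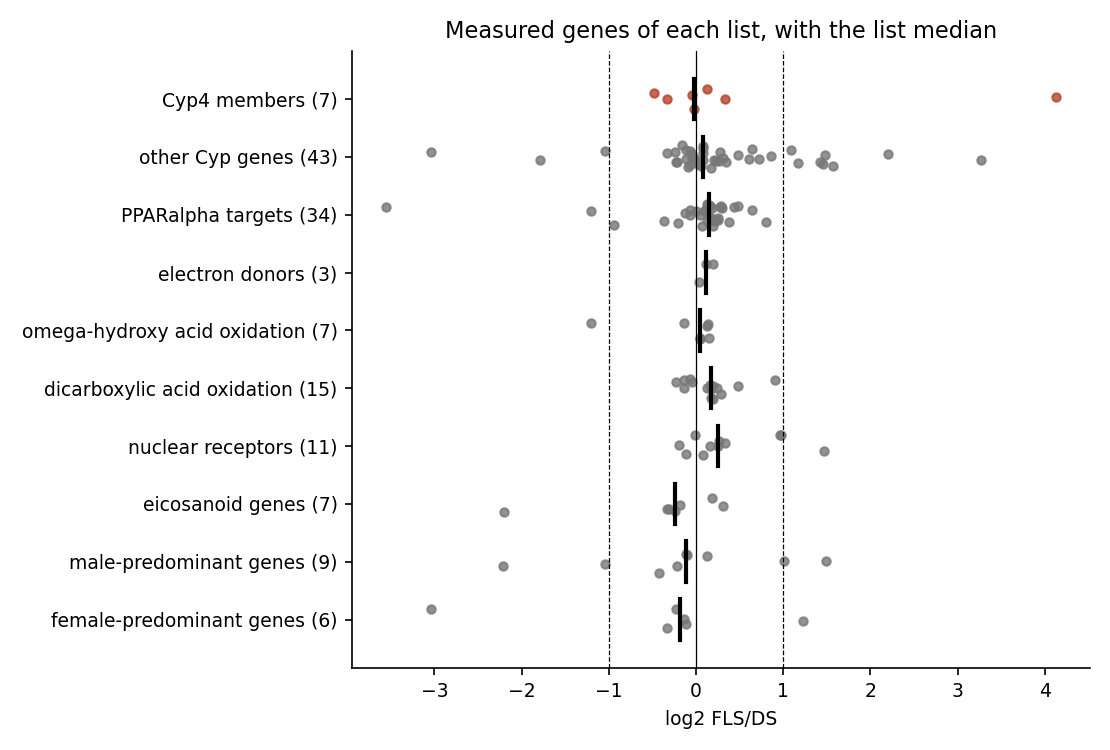
The log2 FLS/DS ratio (horizontal axis) of each measured gene in the Cyp4 group, the other Cyp genes and 8 lists of related genes, with the number measured in parentheses and the median as a black bar. Dashed lines mark 2-fold differences, points are spread vertically for legibility, and ratios with 1 signal below 200 are drawn as deposited. Cyp4a14 is the single point of its row beyond a dashed line. None of the 34 PPARalpha targets lies beyond the line on the right, which 1.89% of all measured genes pass.

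The electron supply of omega-hydroxylation and the steps that follow it were described from 3 lists. Of 4 genes listed as electron donors, 3 were analysed here and all 3 were measured. Ratios were 1.02 for Cyb5a, the microsomal cytochrome b5, and 1.14 for its reductase gene Cyb5r3. Cyb5b, whose product lies in the outer mitochondrial membrane, had a ratio of 1.09. Other measured probe sets of Cyb5r3 had ratios of 1.10 and 0.676, the latter at 531 in FLS livers and 785 in DS livers. Of 7 measured alcohol and aldehyde dehydrogenases, none was at least 2-fold higher, where 1.89% of all measured genes were. At least 2-fold lower was 1 (14.3%), where 1.30% of all measured genes were. This was Aldh3a2, the fatty aldehyde dehydrogenase that completes the conversion to a dicarboxylic acid, at 1325 in FLS livers and 3063 in DS livers, a ratio of 0.432 on its single probe set. It stayed at or below 0.499 over the scalings. By their brightest probe sets, the other 6 had ratios between 0.911 for Adh4 and 1.11 for Aldh2, with Aldh1a1 at 1.10 and Adh1 at 1.03. The probe sets of Aldh2 differed. A dimmer one read 825 in FLS livers and 363 in DS livers, a ratio of 2.27. The remaining Aldh2 probe sets had ratios of 0.883, 0.934 and, with the DS signal below the limit, at least 1.28. Aldh3a2 is also a member of the PPARalpha list.

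Of 15 measured genes for the activation and peroxisomal oxidation of dicarboxylic acids, none was 2-fold higher or lower. This is near the shares over all measured genes, 1.89% higher and 1.30% lower. The 15 genes had a median log2 ratio of 0.17. Crot, the peroxisomal carnitine octanoyltransferase, had 7378 in FLS livers and 3950 in DS livers (ratio 1.87, and 2.15 after division by Actb), while its other probe set was below the limit in both pools. Acaa1a, a peroxisomal thiolase, had a ratio of 1.39, and Nudt19, a peroxisomal CoA hydrolase, of 1.18. Abcd3, the transporter that carries dicarboxylic acids into peroxisomes, had 6328 and 7430, a ratio of 0.852. At the signals of these arrays, the FLS pool thus had more Cyp4a14 signal and less Aldh3a2 signal, with the peroxisomal genes between 0.852 and 1.87.

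The list of eicosanoid genes holds some that make substrates of the Cyp4f enzymes and of Cyp4a12a, and others that use or break down eicosanoids. Its counts therefore do not describe the supply of substrate. Of the 7 measured, none was at least 2-fold higher in FLS livers, where 1.89% of all measured genes were. At least 2-fold lower was 1 (14.3%), where 1.30% of all measured genes were. Alox5ap, which presents arachidonic acid to 5-lipoxygenase, had 160 in FLS livers and 737 in DS livers, a ratio of 0.217, and at most 0.271 with the FLS signal set to 200. Alox5, the lipoxygenase itself, had a ratio of 0.884, and Lta4h, which completes leukotriene B4, of 1.13. Ephx2, a soluble epoxide hydrolase, had a ratio of 0.795, Ptgr1, a leukotriene B4 dehydrogenase, of at most 0.974, since its FLS signal of 166 lay below the limit, and Cyp2c23, an arachidonic acid epoxygenase, of 1.23. Alox5ap is expressed in myeloid cells. Of 11 Kupffer cell and macrophage markers, all measured, 9 had ratios below 1, where 4157 of all 9160 measured genes did. Their ratios ran from 0.554 for Vsig4 to 0.993 for Csf1r, with Clec4f at 0.730 and Adgre1 at 0.744. The other 2 markers were Cd68, at 1.26 or at least 1.18, and C1qa at 1.04. C1qb and Csf1r changed sides of 1 over the scalings. The summed signal of the 11 markers was 6775 in FLS livers and 8438 in DS livers. By immunostaining, the study found macrophages in the inflammatory clusters of FLS livers. The part of Kupffer cells and macrophages in the Alox5ap value was not tested. In bulk liver, fewer cells of a type and less RNA per cell cannot be told apart.

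Cyp4a12a is one of the genes that male mouse liver expresses at higher levels. Of 9 other measured male-predominant genes, FLS livers had 2 at least 2-fold up and 2 at least 2-fold down, with a median of -0.11 on the log2 scale. Each count was 22.2% of the list, where 1.89% of all measured genes were at least 2-fold higher and 1.30% lower. Nat8 had 2783 in FLS livers and 993 in DS livers, and Elovl3, a fatty acid elongase, had 2618 and 1298, while Cyp7b1, an oxysterol hydroxylase, had 3955 and 8163 and Ugt2b38, a glucuronosyltransferase, had 647 and 3001. Elovl3 and Cyp7b1 lay close to the 2-fold limit, with Elovl3 down to 1.99 and Cyp7b1 up to 0.558 over the scalings. A dimmer probe set of Cyp7b1 had 2556 in FLS livers and 5892 in DS livers, a ratio of 0.434. Of 6 measured female-predominant genes, Sult1e1, the estrogen sulfotransferase, had a ratio of 2.35 and Cyp2b13 of 0.122, at most 0.271, while Cyp2b9 stood at 0.792 and Fmo2 at no more than 0.985, with an FLS signal of 174. Genes of both lists thus lay on both sides of equal signals. So did Cyp4a12a and Cyp4a14 within their own subfamily, with Cyp4a12a within 1.5-fold of equal signals.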

How the data were processed

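Liver RNA was profiled on 2 Affymetrix mouse whole-genome arrays, 1 for each pool of 3 mice. The deposited intensity values had been normalized and summarized by the authors with the MBEI (PM-only) algorithm, and the submitters' processing notes name affy. These sources do not say how the arrays were brought to a common scale. FLS signals spanned 38.2 to 32018 and DS signals 36.6 to 30942. The number of arrays limits the precision.

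Ratios of FLS to DS signals were taken without an offset for 45101 probe sets and expressed as log2. The platform annotation gave 34958 of them 1 symbol, 932 several and 9211 none, and 34754 symbols were brought up to date through RefSeq gene numbers. Each gene was read from the probe set whose signals had the highest mean. Probe sets with several symbols gave no gene value. A gene was called at a ratio of at least 2 or at most 0.5 if its signal reached 200 in 1 pool or both. Text genes were the 10 members, other Cyp4 genes, the receptor genes Ppara and Nr1i3, Actb, and in each list the called genes or, if fewer than 4, the largest absolute log2 ratios up to 4. Any other named gene, among them the neighbours, Cyp2b10, Acot1, Ehhadh, Cpt1a, Adh1, Abcd3, Rxra, Alox5, Lta4h and single markers, was picked after its value was seen. The members and lists were chosen with earlier results of these data known.

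Alternatives were quantile normalization, median centring, removal of a loess trend (fraction 0.4), division by Actb, an offset of 50, the median over probe sets, omission of _x_at and _s_at probe sets, limits of 100, 500 or 200 in both pools, folds of 1.5 and 3 and, chosen after the data were seen, signals below 200 set to 200. The calculations were tested on simulated data. The software was Python 3.11.15 with pandas 2.3.3 and numpy 2.4.6, statsmodels 0.14.6 for loess, and matplotlib 3.10.9.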

Additional observations from a re-analysis of the deposited data

How the results depend on the processing

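Across 13 alternatives, 385 of 407 recomputed values stayed within 1.5-fold of a count or within 0.26 of a log2 ratio, the SD between probe sets of 1 gene. Many of these values could not change. A signal limit leaves the ratio of a measured gene as it is, and so do the choices between probe sets for a gene with 1 probe set. The share is therefore no measure of robustness. The log2 ratio of Cyp4a14 was 3.51 with an offset of 50 and 2.89 with signals below 200 set to 200, and with 200 required in both pools the number of members at least 2-fold higher was 0, since Cyp4a14 then was not measured. That requirement also left 0 eicosanoid and 0 female-predominant genes at least 2-fold lower. After division by Actb, 74.5% of all calls were higher in FLS livers in place of 59.2% (269 higher and 92 lower against 173 and 119), with 1 PPARalpha target, 1 gene of dicarboxylic acid oxidation and 3 nuclear receptor genes (among them Ppargc1a, whose DS signal was below 200) at least 2-fold higher and 1 male-predominant gene at least 2-fold lower. The number of nuclear receptor genes at least 2-fold higher was 2 after median centring or loess, where 2.04% and 1.84% of all measured genes were. The male-predominant genes at least 2-fold higher were 1 after loess or with the offset, where 1.84% and 1.55% of all measured genes were. At a fold of 1.5, 490 genes were higher and 324 lower, among them 2 PPARalpha targets, 1 gene of dicarboxylic acid oxidation and 3 nuclear receptor genes higher. At a fold of 3, 57 genes were higher and 50 lower, with 0 nuclear receptor, 0 male-predominant and 0 female-predominant genes higher and 1 PPARalpha target, 1 male-predominant gene and 0 dehydrogenases lower. With signals below 200 set to 200, 134 of 9160 genes were higher and 99 lower. With 200 required in both pools, 104 of 8307 genes were higher and 83 lower. No paired analysis was possible because each strain has 1 array. Differences between signals that were both below 200 were not read. The limit of 200 was a chosen setting, and the noise at low signals was not measured.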
